A study of Cavia porcellus with 11 samples.

Results

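The untreated guinea pig (Cavia porcellus) cochlea is described here from the 4 libraries that carry the label for no treatment, out of 11 libraries in the series. The 4 were chosen by that label alone, and nothing measured entered the choice. The 4 cisplatin libraries and the 3 libraries given cisplatin plus STB were not used. No agent or allele is stated for the untreated animals. The labels used here give neither strain, age or sex nor the dissection, and they do not say how many animals or ears went into a library. They do not state that the 4 libraries are separate animals, so the spread between them may be partly technical. Bulk RNA of tissue labelled as cochlear was sequenced. The deposited table holds a read count and an FPKM value (fragments per kilobase of exon, scaled to library size) for 21481 genes. Of these, 21478 are protein-coding in RefSeq.

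In the cochlea, hair cells turn sound into receptor potentials, supporting cells hold them in place, and spiral ganglion neurons, wrapped by Schwann cells, carry the signal to the brain. The stria vascularis secretes the potassium-rich endolymph that drives the hair cells, and fibrocytes of the spiral ligament and limbus return potassium to it and lay down much of the extracellular matrix. The organ sits in the bony otic capsule, whose spaces can hold marrow, and beside the vestibular organs, so a dissected cochlea can hold all of these tissues. In bulk RNA, fewer cells of a type and less RNA per cell cannot be told apart, and that holds for each cell type below.

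Library totals lay between 14338894 and 18508296 counts. A count of 0 therefore allows a level of up to 0.162 to 0.209 CPM (counts scaled to a library of 1000000), depending on the library, when 3 counts are taken as the limit and only counting error is considered. In all, 12320 genes reached 1 FPKM in each of the 4 libraries, 1245 reached it in 1 to 3 of them, and 3629 had no read in any. Pearson correlations of log2 expression over the 12630 genes compared ranged from 0.925 between replicates 2 and 4 to 0.974 between replicates 1 and 3. Genes are not independent, so these values describe the libraries and test nothing.

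The labelled tissue was checked with 4 genes that mark it. Coch, which encodes cochlin, the main non-collagen protein of the spiral ligament and limbus matrix, was the most abundant of all genes, at 17359.7, 13004.9, 14382.1 and 18783.4 FPKM in replicates 1 to 4. In the deposited coordinates the gene lies on the plus strand of its scaffold from 27533503 to 27546826. Otos, which encodes otospiralin, a small secreted protein of the same fibrocytes, stood at 681, 943, 1253 and 1717 FPKM. Gjb2, which encodes connexin 26, the gap junction protein through which potassium passes between supporting cells and between fibrocytes, stood at 985, 864, 923 and 945 FPKM. These 3 markers were high in every library. Kcnq1, the potassium channel of the strial marginal cells, was low, at 3.41, 2.65, 2.69 and 1.35 FPKM from 238, 201, 197 and 122 counts.

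Transcript abundance was uneven. A mean of at least 1000 FPKM was reached by 23 genes, 560 lay from 100 to 1000 FPKM, 6172 from 10 to 100 and 6242 from 1 to 10. The 40 most abundant genes together held 17.3% to 20.8% of each library's summed FPKM when ranked within that library, and between 460 and 652 genes held 50% of it. Coch alone took 2.79% to 4.04% of all counts. Of the 40 genes with the highest mean, 26 were among the top 40 in each of the 4 libraries. Ribosomal protein genes made up 13 of the top 40 and 51 of the top 100.

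**Figure D1:**
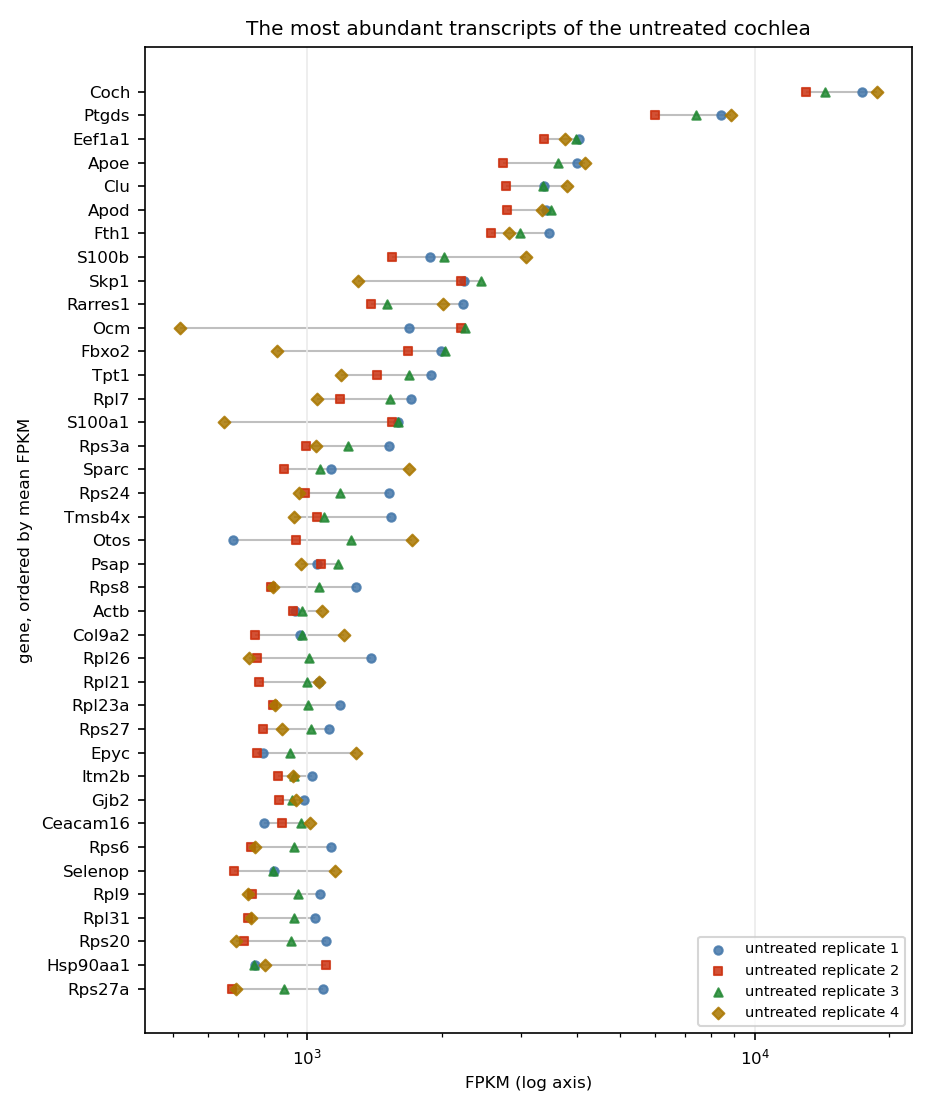
FPKM (log axis) of genes among the 40 with the highest mean over the 4 untreated libraries, 1 point per library, with a grey line from the lowest to the highest. Coch and Ptgds stand clear of all others, while Ocm, S100a1, Fbxo2 and Skp1 have replicate 4 (diamonds) far below the other libraries.

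Secreted proteins of the lateral wall and carriers of lipids led the list. Ptgds, which makes prostaglandin D2 and carries lipophilic molecules, was next to Coch at 8392, 5995, 7404 and 8846 FPKM. The 2 genes kept a nearly fixed proportion, with a Coch to Ptgds ratio of 2.08 ± 0.0981 (SD, n = 4). Eef1a1, the translation elongation factor, came next at a mean of 3793 ± 301 FPKM. The ranges of Coch, Ptgds and Eef1a1 did not overlap, and from there on the neighbours in the order that are named here had overlapping ranges. Apoe, at a mean of 3644 ± 644 FPKM, Clu, at 3330 ± 419, and Apod, at 3266 ± 321, are apolipoproteins, and their ranges overlapped one another and that of Eef1a1. Fth1, the ferritin heavy chain that stores iron, followed at 2961 ± 382 FPKM.

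Genes of glia and of the organ of Corti stood next. S100b, a calcium-binding protein of glia and other cells, was at 1880, 1547, 2018 and 3075 FPKM. Skp1 and Fbxo2, partners in an SCF ubiquitin ligase and both long known as abundant proteins of the organ of Corti, stood at 2242, 2205, 2447 and 1300.1 FPKM and at 1988, 1682, 2035 and 856. Ocm, oncomodulin, the calcium buffer of outer hair cells, stood at 1688, 2202, 2247 and 518 FPKM. S100a1, another small calcium-binding protein, which marks supporting cells in the cochlea of rodents, stood at 1599, 1550.1, 1596 and 652 FPKM. Skp1, Fbxo2, Ocm and S100a1 were each lowest in replicate 4, whereas S100b was highest there. Further down the 40 were matrix genes: Sparc at a mean of 1191 ± 345 FPKM, Col9a2 at 978 ± 183, the small proteoglycan Epyc at 941 ± 236 and Ceacam16, a glycoprotein of the tectorial membrane, at 915 ± 94.4. Ucma, a cartilage protein just below the top 40, divided the libraries, at 1067 and 1255 FPKM in replicates 1 and 4 and at 464 and 543 in replicates 2 and 3.

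Cell type content was read from lists of marker genes, each described by how many members the table holds, how many reached 1 FPKM in all 4 libraries and their summed FPKM. A sum leans on the list's most abundant member, which is named with each sum where it holds most of it. The lists are marker sets of different length and level, so sums say nothing of cell numbers and are set side by side only to show their size.

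**Figure D2:**
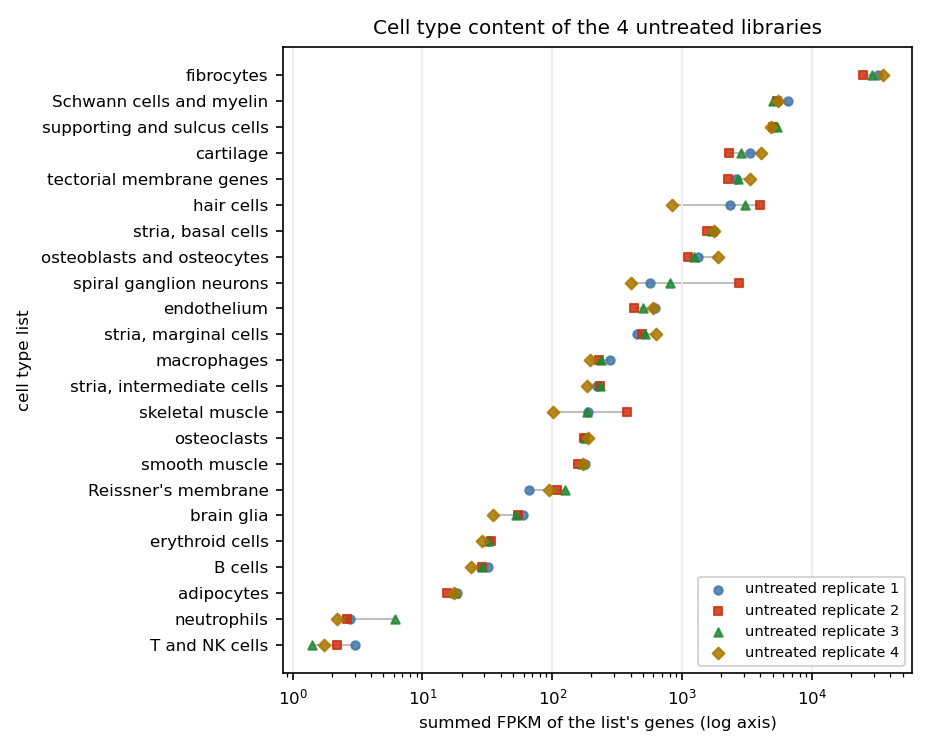
Summed FPKM (log axis) of the genes of 23 cell type lists in each of the 4 untreated libraries, with a grey line from the lowest to the highest library. Fibrocyte genes hold the largest sum, neutrophil and T cell genes the smallest, and the hair cell and neuron sums spread most widely among those above 100 FPKM.

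Fibrocyte genes held 7.30% of all FPKM. All 20 members in the table were at 1 FPKM or more in every library, and their sum was 32165, 24594, 28662 and 35356 FPKM. Without Coch and Ptgds the other 18 still summed to 6413, 5594, 6876 and 7727. Ca3, a carbonic anhydrase, stood at 410, 263, 279 and 430 FPKM. Slc4a11, a membrane transporter that spiral ligament fibrocytes express in mice, stood at 203, 197, 268 and 351 FPKM. Pou3f4, a transcription factor of otic mesenchyme whose human form is mutated in X-linked deafness, was at 11.8, 11.4, 11.3 and 19.1. Of the 20 members, 15 were highest in replicate 4 and 10 lowest in replicate 2. Over the 1229 genes whose highest library was at least 2-fold over the lowest, 271 were highest in replicate 4 and 135 lowest in replicate 2. Only 6 of the 20 members differed that much themselves, so the sets are not alike. Otos differed in its order from Coch: the Coch to Otos ratio was 25.5, 13.8, 11.5 and 10.9 in replicates 1 to 4.

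Strial genes were far lower than fibrocyte genes. For marginal cells, which secrete potassium into the endolymph, 11 of the 14 genes in the table were at 1 FPKM or more in all libraries. Their sum was 450, 493, 516 and 626 FPKM. Slc12a2, the sodium-potassium-chloride cotransporter, which other cells share, stood at 115, 124, 117 and 200.4 FPKM. The channel pair of the apical membrane was much lower. Kcne1, the subunit that slows Kcnq1 channels, stood at 20.2, 17.4, 22.3 and 5.37 FPKM, and both were lowest in replicate 4. Bsnd, the chloride channel subunit barttin, had 19, 6, 1 and 1 counts.

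Intermediate cells are melanocyte-like cells of the stria. Their potassium channel Kcnj10, which also sits in supporting cells and glia, stood at 42.0, 43.3, 43.7 and 31.8 FPKM. The pigment genes were low: Pmel, a melanosome matrix protein, at 12.2, 10.8, 10.7 and 6.36, Dct, an enzyme of melanin synthesis, at 2.30, 3.55, 0.17 and 0.66, and Mlana at 1.00, 0.95, 0.55 and 0.35. Tyr, which encodes tyrosinase, the enzyme that starts melanin synthesis, had 13 and 19 counts in replicates 1 and 2 and none in replicates 3 and 4. Dct followed a similar split, with replicates 1 and 2 above replicates 3 and 4. Basal cells join the stria to the ligament, and their tight junction gene Cldn11 was at 39.4, 35.0, 43.5 and 28.4 FPKM.

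Supporting cell genes had an even sum, though single members were less even. Of 20 members in the table, 16 were at 1 FPKM or more in every library, and the sum differed by a factor of 1.11 between the highest and the lowest. S100a1, which held 26.6% of the sum, was lowest in replicate 4, at 652 FPKM, whereas Epyc was highest there, at 1282. Of the 16 members compared between libraries, 7 were lowest in replicate 4 and 4 were highest there. Gjb6, connexin 30, stood at 406, 349, 384 and 450.3 FPKM, and the Gjb2 to Gjb6 ratio was 2.35 ± 0.171 (SD, n = 4). Among the tectorial membrane genes, Ceacam16 was at 801, 877, 969 and 1012 FPKM, Otoa, otoancorin, at 43.5, 39.9, 41.9 and 49.9, and Otog, otogelin, at 26.2, 25.6, 30.6 and 19.8. The tectorin genes, in contrast, were barely detected. Tecta had 0.23, 0.34, 0.28 and 0.56 FPKM from 24, 38, 30 and 74 counts, and Tectb 0.09, 0.42, 1.63 and 0.68 FPKM. The Notch effector Hes5 had no read in any library.

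Hair cell genes were measurable. The table held 28 of the 30 listed, 23 of them at 1 FPKM or more in every library. Besides Ocm, the calcium-binding Cabp2 stood at 77.3, 75.8, 75.7 and 27.9 FPKM, and the mechanotransduction complex gene Cib2 at 56.1, 51.3, 46.2 and 26.9. Otof, otoferlin, the calcium sensor of the inner hair cell synapse, stood at 39.4, 33.2, 48.2 and 29.6 FPKM. Pou4f3, the transcription factor that hair cells need to survive, stood at 21.6, 31.8, 28.6 and 8.86 FPKM, and Slc17a8, the glutamate transporter of inner hair cells, at 11.1, 11.2, 11.8 and 8.0. Tmc1, the transduction channel subunit, was at 9.74, 13.0, 10.9 and 6.50 FPKM, and Myo7a, the stereocilia myosin, at 6.18, 7.64, 8.81 and 4.30. Slc26a5, prestin, the motor protein of outer hair cells, was low beside Ocm, at 3.43, 6.90, 4.79 and 2.34 FPKM from 97 to 240 counts. The Ocm to Slc26a5 ratio was between 222 and 492. Strc, stereocilin, had 0, 2, 0 and 1 counts, and Atoh1, a factor of hair cell formation, had none.

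Neuron genes were present at low levels in most libraries, with 18 of 30 at 1 FPKM or more in all 4. Gata3, a transcription factor of the inner ear and its neurons, stood at 81.8, 103, 112 and 48.1 FPKM. Th, the catecholamine enzyme, had no read in any library, and Prph, peripherin, which marks the sparse type II neurons, was at 0.20, 0.74, 0.40 and 0.21. Schwann cell genes were much higher, with a sum of 6571, 5356, 5010 and 5422 FPKM and 19 of 20 members at 1 FPKM or more in all libraries. Pmp22, a myelin protein, stood at 764, 648, 485 and 387 FPKM, and Mbp, myelin basic protein, at 562, 409, 312 and 268. Genes of brain glia were low. Gfap was at 0.19 to 0.34 FPKM and the oligodendrocyte gene Mog at 0.30 to 1.08.

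Most bone genes were low. The median member of the osteoblast and osteocyte list had a mean of 1.7 FPKM, and 11 of 21 reached 1 FPKM in all libraries. Sparc, which fibroblasts and cartilage also express, held 85.9% of the osteoblast and osteocyte sum, and without it the other 20 genes summed to 201, 217, 166 and 198 FPKM. Bglap, osteocalcin, stood at 17.2, 14.3, 19.0 and 15.9 FPKM. The main collagen of bone matrix was at a low level: Col1a1 had 0.89, 0.65, 0.71 and 0.50 FPKM and Col1a2 3.63, 5.38, 7.94 and 3.30. Alpl was under 2 FPKM in each library, and the osteocyte gene Dmp1 was at 1.30, 1.30, 0.78 and 0.06. The osteoclast protease Ctsk stood at 24.6, 29.9, 27.2 and 29.4 FPKM, while Acp5, another osteoclast enzyme, was at 0.66 to 1.63. Cartilage genes were higher, with a sum of 3329, 2298, 2821 and 4062 FPKM led by Col9a2. Col2a1, the main cartilage collagen, which the tectorial membrane also holds, stood at 66.5, 57.5, 58.8 and 78.3.

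Most blood and marrow genes that the table holds under their symbols were low. Of 69 genes of erythroid, neutrophil, eosinophil and mast cell, B cell, T and natural killer cell, and megakaryocyte lists in the table, 48 were under 1 FPKM in all 4 libraries and 12 had no read in any. Over the whole table, 7916 of 21481 genes were under 1 FPKM in all 4 and 3629 had no read. The share with no read was thus close to that of the table, and only the share under 1 FPKM was larger. Many listed genes, among them Hba1, Hbb, Elane, S100a8, Pf4 and Cd3e, are not in the table under those symbols and were not counted. Only 4 of the 69 exceeded 10 FPKM in any library. The red cell gene Ahsp, the red cell regulator Gata1 and the neutrophil enzymes Mpo and Mmp8 had no read. Hemoglobin alpha, found in the table by description (LOC100712878) after the values were seen, stood at 17.0, 8.81, 10.7 and 14.9 FPKM, and hemoglobin beta (LOC100720944) at 5.99, 8.09, 6.76 and 9.51. Jchain, an immunoglobulin chain of plasma cells, was at 7.36 FPKM in replicate 1, at 0.45 in replicate 4 and without a read in replicates 2 and 3.

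Macrophage and vessel genes were at moderate levels. Cd74, which escorts class II histocompatibility molecules, held 53.0% of the macrophage sum, and C1qa, a complement chain of tissue macrophages, stood at 16.3, 17.1, 15.6 and 12.7 FPKM. The endothelial sum was 613, 428, 499.8 and 595 FPKM, led by the receptor partner Ramp2. The pericyte gene Pdgfrb stood at 47.0, 39.2, 43.7 and 46.8. Skeletal muscle genes were low once Pvalb was set aside. Pvalb, parvalbumin, which neurons and hair cells also make, held 61.7% of the muscle sum, and without it the other 28 genes summed to 105, 73.9, 86.8 and 60.2 FPKM. The muscle actin gene Acta1 and the fast troponin gene Tnnt3 had no read, and Mb, myoglobin, stood at 17.0, 7.2, 19.0 and 3.54. Adipoq and Lep, the hormones of fat cells, had no read either.

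Variation between the 4 libraries was measured on CPM scaled with TMM factors, over the 12630 genes with a mean of at least 1 FPKM and 50 counts. That mean is over the same libraries, so a gene can pass through 1 high library alone and then also counts as variable. The median gene had an SD of 0.195 on the log2 scale, where counting error alone gives a median of 0.0585, and 95.6% of genes exceeded their own counting error. The highest library was at least 2-fold over the lowest for 1229 genes, which is 9.73% of those compared, and at least 4-fold over it for 315, which is 2.49%. Replicates 2 and 4 accounted for most of these extremes. Among the 1229 genes past 2-fold, 192, 562, 204 and 271 were highest in replicates 1 to 4, and 333, 135, 141 and 620 were lowest there. Counts of list members by highest or lowest library are set beside these, but they take every member that passed, also those within 2-fold. The same counts over all genes compared are not given, so the 2 sets are not alike. Of the genes past 4-fold, 220 (69.8%) were highest in replicate 2 and 200 were lowest in replicate 4. The least alike libraries were replicates 2 and 4, in which 721 genes (5.71%) differed at least 2-fold. Replicates 1 and 3 were the most alike, with 282 such genes (2.23%).

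Leaving out replicate 4 lowered the number of genes past 2-fold to 691, and leaving out each of the others gave 846 to 1066. The number past 4-fold was 135 without replicate 2, 192 without replicate 4 and 271 and 293 without replicates 1 and 3.

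**Figure D3:**
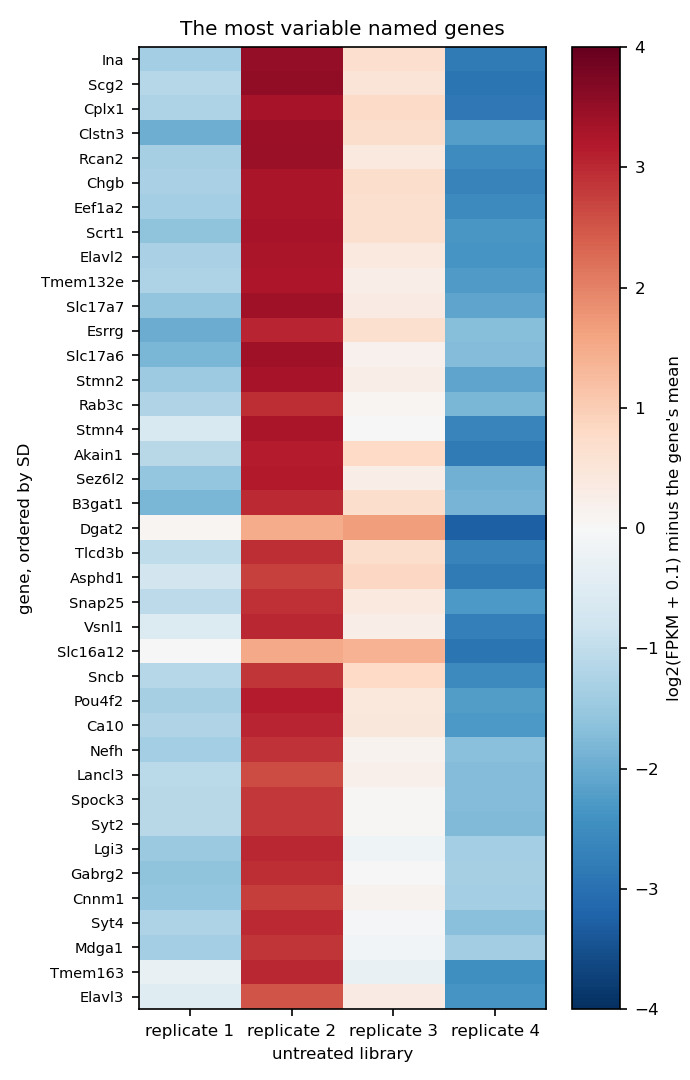
Log2(FPKM + 0.1) of genes among the 40 most variable that have a symbol other than a LOC number, minus each gene's mean over the 4 untreated libraries. Over all 40, replicate 2 is highest for 39 and replicate 4 lowest for 34.

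Of the 40 most variable genes with such a symbol, 5 were on the neuron list and none of the other 35 was on any list. Ina, a neuronal intermediate filament protein, was at 2.35, 72.6, 9.84 and 0.79 FPKM in replicates 1 to 4, and Cplx1, complexin, which acts in synaptic vesicle release, at 4.38, 104.0, 17.6 and 1.36. In each of these genes replicate 2 stood far above the rest, replicate 3 came next and replicate 4 was lowest. The same order held for Scg2 and Chgb, granins of secretory granules, at 1.52, 41.4, 4.96 and 0.37 FPKM and at 3.36, 82.6, 13.9 and 1.26. Eef1a2, the elongation factor of neurons and muscle, stood at 9.83, 242, 39.7 and 4.23 FPKM, and Snap25, a synaptic fusion protein, at 11.4, 182, 31.3 and 4.78. Slc17a7, the vesicular glutamate transporter of spiral ganglion neurons, stood at 1.12, 38.3, 4.46 and 0.74 FPKM. Dgat2 and Slc16a12, also among the 40, showed another pattern, with replicates 2 and 3 both high and replicate 4 lowest. Dgat2, a triglyceride-forming enzyme, was at 18.5, 48.9, 56.0 and 1.73 FPKM.

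The neuron list shows the same split across its members. Its sum was 561, 2713, 803 and 403 FPKM, a ratio of 6.73 between highest and lowest, and of 1.99 without replicate 2. Of the 22 members that passed the filter, 18 (81.8%) differed 2-fold or more, beside 9.73% of all genes compared, and 14 differed 4-fold or more. Slc17a6 passed only through replicate 2, at 0.04, 5.10, 0.46 and 0.05 FPKM. A member that enters so is bound to add to these counts and to those of replicate 2. Replicate 2 was highest for 18 of the 22 and replicate 4 lowest for 13. Over the 1229 genes past 2-fold, replicate 2 was highest for 562 (45.7%) and replicate 4 lowest for 620. Nefh, the heavy neurofilament chain, stood at 14.9, 287, 42.1 and 12.2 FPKM, Tubb3, neuronal tubulin, at 5.67, 59.3, 11.0 and 3.21, and Uchl1, a deubiquitinase of neurons, at 17.1, 159, 30.1 and 5.83. Not every member followed. Gap43, a growth cone protein that glia also make, was at 34.3, 27.9, 31.3 and 24.7 FPKM, and Map2 at 15.3, 24.4, 20.9 and 26.9. Genes of brain glia summed to 59.9, 54.2, 52.4 and 34.7 FPKM, and that sum was not highest in replicate 2. The sum was led by the myelin gene Mag, and only 6 of 15 members reached 1 FPKM in all 4 libraries. Whether brain tissue added to the neuron genes was not tested.

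**Figure D4:**
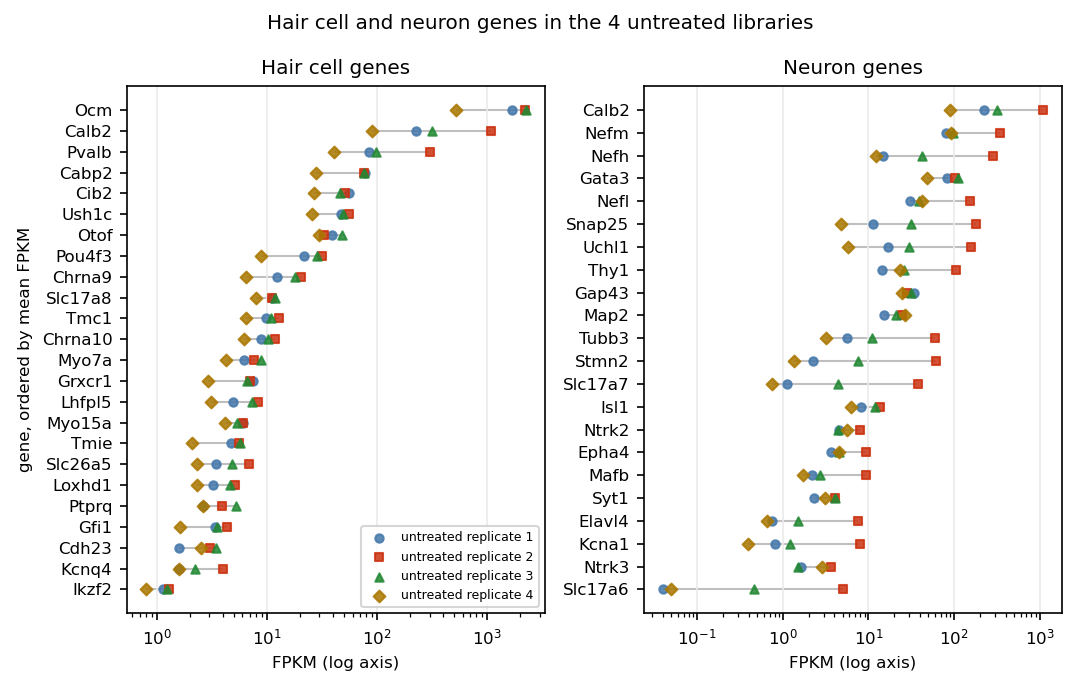
FPKM (log axis) in each untreated library of the hair cell genes (left) and neuron genes (right) that passed the filter, with a grey line from the lowest to the highest library. Replicate 2 (squares) stands apart for most neuron genes, whereas replicate 4 (diamonds) is the lowest for 21 of the 24 hair cell genes. Over the 1229 genes past 2-fold, replicate 2 is highest for 562 and replicate 4 lowest for 620.

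Hair cell genes split the libraries in another way. Their sum was 2329, 3967, 3021 and 827 FPKM, a ratio of 4.80 between highest and lowest, and of 1.70 without replicate 4. Of the 24 members that passed, 16 (66.7%) differed 2-fold or more, beside 9.73% of all genes compared, and 21 of the 24 were lowest in replicate 4. Replicate 4 was also lowest for 620 of the 1229 genes past 2-fold. Chrna9, the efferent acetylcholine receptor subunit of hair cells, stood at 12.5, 20.5, 18.1 and 6.48 FPKM, and Tmie, part of the transduction complex, at 4.77, 5.58, 5.70 and 2.09. Only 3 members differed 4-fold or more: Ocm, and the calcium buffers Calb2 and Pvalb, which neurons also express. Calb2 stood at 226, 1094 and 316 FPKM in replicates 1 to 3 and at 90.5 in replicate 4, and Pvalb at 84.3, 303, 98.7 and 40.7. Without Calb2 and Pvalb the hair cell sum was 2018, 2570, 2606 and 696 FPKM, so replicate 4 remained the lowest while replicates 2 and 3 were nearly level. Without Ocm as well, the other 25 genes summed to 331, 369, 359 and 177 FPKM.

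Skp1, Fbxo2, S100a1, Kcnq1 and Kcne1 were lowest in replicate 4 as well. The sum of supporting cell genes was 5114, 4977, 5373 and 4837 FPKM. Within that sum S100a1 was lowest and Epyc highest in replicate 4, so it does not show that each member was level. The fibrocyte sum was highest in replicate 4. Heat shock chaperones, which refold proteins, were highest in replicate 2, as neuron genes were. All 8 members of that list were highest there, beside 562 (45.7%) of the 1229 genes past 2-fold. Only 3 of the 8 were past 2-fold themselves. Among the 8 were Hspa8 at 319, 687, 323 and 397 FPKM and Hsph1 at 24.3, 74.9, 22.5 and 30.5. Whether these 2 lists are linked was not tested.

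Interferon-stimulated genes formed another axis. Their sum was 328, 176, 160.5 and 719 FPKM, a ratio of 4.48 between highest and lowest, and of 2.04 without replicate 4. All 14 members that passed differed 2-fold or more, beside 9.73% of all genes compared, and all 14 were highest in replicate 4. Only 12 members were at 1 FPKM or more in all 4 libraries, so some passed on part of the libraries. Over the 1229 genes past 2-fold, 271 (22.1%) were highest there. Irf7, which drives interferon production, stood at 23.1, 8.07, 7.33 and 77.2 FPKM, and Isg15, a ubiquitin-like modifier, at 42.6, 6.12, 5.67 and 75.0. Replicate 1 was the lowest for 0 of the 14. Rigi, the cytosolic sensor of viral RNA, stood at 4.91, 4.66, 3.78 and 23.2 FPKM, so there only replicate 4 stood out. Outside the list, Ifit5 stood at 8.42, 4.25, 3.74 and 54.2 FPKM and Dhx58, a regulator of RNA sensing, at 13.2, 7.35, 7.08 and 69.4. These 2 were named after their values were seen. Macrophage genes summed to 277, 228, 237 and 194 FPKM. Cd74, the invariant chain of class II histocompatibility molecules, held 53.0% of that sum, and without it the ratio of highest to lowest was 1.17. Of the 15 macrophage genes that passed, 5 were lowest in replicate 4 and 5 in replicate 3, and 0 differed 2-fold.

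**Figure D5:**
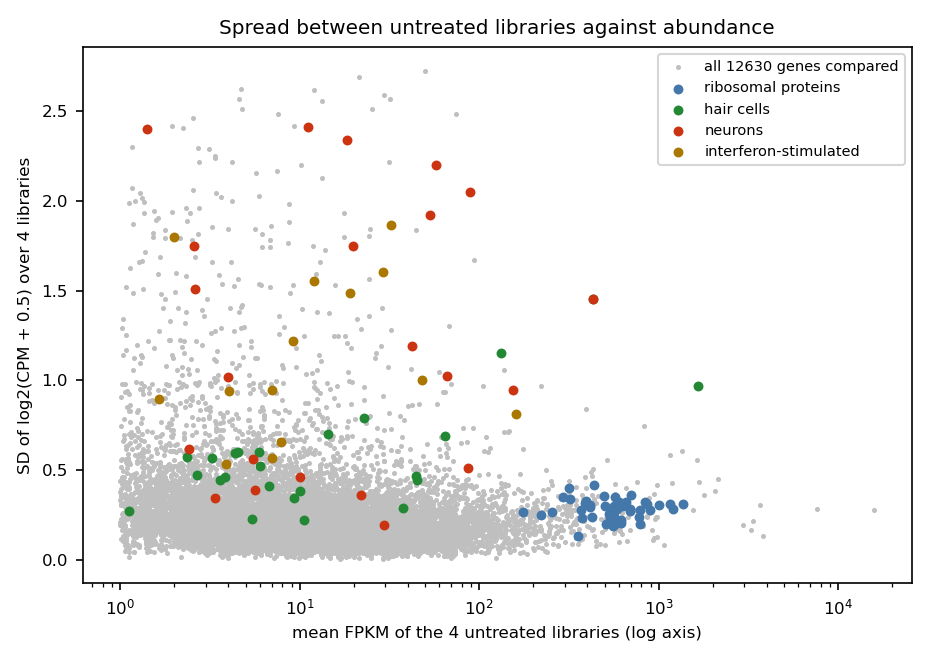
SD of log2(CPM + 0.5) over the 4 untreated libraries against mean FPKM (log axis) for the 12630 genes compared, with 4 gene lists in colour. Neuron and interferon-stimulated genes reach above 1 on the vertical axis, while ribosomal protein genes all stay low.

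Myelin and ribosomal protein genes varied less but in concert. Of the 19 Schwann cell genes that passed, 16 were highest in replicate 1 and 16 lowest in replicate 4, and 8 (42.1%) differed 2-fold or more, beside 9.73% of all genes compared. Without S100b, the sum was 4692, 3809, 2992 and 2346 FPKM. Egr2, the transcription factor that turns on the myelin genes, stood at 22.8, 10.3, 10.3 and 5.31. S100b went the other way and was highest in replicate 4. All 47 ribosomal protein genes were within 2-fold, and 46 of them were highest in replicate 1, where their sum was 34674 FPKM, beside 23272, 29588 and 23428 in the others. Over the 1229 genes past 2-fold, 192 (15.6%) were highest in replicate 1 and 620 lowest in replicate 4. None of the 47 ribosomal protein genes is among those 1229, so that share is no background for the 46. The share over all genes compared is not given.

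Each library also had genes of its own. Of the 12630 genes compared, replicate 2 had 248 at least 2-fold above the next library and replicate 4 had 54. Replicate 1 had 15 and replicate 3 had 12. At least 2-fold below the nearest library were 109 genes in replicate 4, 19 in replicate 1, 8 in replicate 2 and 4 in replicate 3. Oc90, the main protein of otoconia, the crystals of the vestibular organs, stood at 32.6, 32.0, 181 and 24.4 FPKM and set replicate 3 apart. The otoconial collagen gene Otol1 was at 2.13, 1.48, 1.31 and 2.60 FPKM and did not share this pattern. The iron hormone gene Hamp, like Oc90, was highest in replicate 3, at 38.3, 27.3, 95.2 and 23.6. In replicate 1 the peptide hormone gene Sst, somatostatin, was at 20.5 FPKM, beside 5.22, 2.48 and 2.63 in the others. The water channel gene Aqp1 was at 116, 27.7, 27.9 and 68.0, higher in replicates 1 and 4. Slc26a4, pendrin, the anion exchanger of outer sulcus and spindle cells, was lowest in replicate 1, at 10.8, 23.4, 32.7 and 23.9. Slc4a10, a bicarbonate transporter on the fibrocyte list, was highest in replicate 4, at 1.62, 1.63, 3.32 and 10.6. Slco2a1, a prostaglandin transporter, was highest in replicate 3, at 3.17, 3.33, 8.94 and 2.95. Hamp, Sst and Slco2a1 were named after their values were seen.

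The steady end of the order is given by rank, and no shared role was tested. Among genes with a symbol and a mean of at least 10 FPKM, the smallest spread belonged to Siah1, a ubiquitin ligase, at 28.8, 29.9, 29.5 and 28.0 FPKM. Next came Unc50 at 16.7, 17.3, 17.1 and 16.2 and Zfpl1 at 21.3, 22.1, 21.7 and 20.7. The signalling kinase Jak1 and the splicing factor Hnrnpl were also among the first 10. The SD of Siah1, 0.0049 on the log2 scale, lay below the 0.0399 that counting error alone gives at its depth. Each of the first 10 likewise lay below its own counting error, so their order among the 6465 such genes is not resolved. Of 19 genes often used as references in quantitative PCR, none differed 2-fold, beside 9.73% of all genes compared. Their median SD was 0.194, beside 0.195 for all genes compared. Tbp, a general transcription factor, was the steadiest, with an SD of 0.12 on the log2 scale, and Sdha had 0.13. Gapdh, at 766, 769, 654 and 591 FPKM, had an SD of 0.17. Rps18 had 0.31, Tfrc 0.38 and Ipo8 0.38, the last at a mean of only 4.20 FPKM.

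Genes whose variants cause hereditary hearing loss in humans were read from a list as well. The table held 86 of 89 listed, and 71 of the 86 were at 1 FPKM or more in all 4 libraries. Among the most abundant were Coch, Epyc, Gjb2, Gjb6 and P2rx2, a channel gated by ATP, which stood at 350.3, 337, 415 and 282 FPKM. Of the 72 that passed the filter, 20 (27.8%) differed 2-fold or more between libraries, beside 9.73% of all genes compared.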

How the data were processed

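The deposited table of the authors gives, per the file headers, raw read counts and FPKM for each gene. FPKM equals count divided by exonic length in kilobases and by the library total in units of 1000000, to within 0.005, so the authors' FPKM adds no scaling between libraries beyond the total. Reads had passed through HTSeq 0.6.1, HISAT2 2.2.1 and cutadapt 1.9.1, per the submitters' processing notes; their roles, the genome build and strand use in counting are not given in the sources used here. Deposited positions of 21478 symbols equal those of RefSeq assembly mCavPor4.1. Per the labels' protocols mRNA was enriched with oligo(dT) beads or by removing ribosomal RNA, without saying which library had which. Reads of genes that overlap on opposite strands (Ptgds with Clic3, Fbxo2 with Fbxo44, S100a1 with S100a13, Oc90 with Efr3a, Isg15 with Noc2l, Gapdh with Iffo1, Ina with Nt5c2, Cib2 with Sh2d7, Rigi with Smim27) may be shared.

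Levels are FPKM. Spread is the SD of log2(CPM + 0.5), with TMM factors of edgeR 4.0.16 (R 4.3.3) over the 4 libraries, for genes with a mean of at least 1 FPKM and 50 counts; ratios of single genes use the same CPM + 0.5. There is 1 group, so no groups were compared by a test; Dixon's check for 1 distant library among 4 was run on the named genes and list sums. Alternatives were deposited FPKM, plain CPM, upper-quartile and DESeq2 1.42.0 factors, other filters and pseudocounts, and leaving out each library. Sums without single dominant or shared members (Calb2, Pvalb, Ocm, S100b, Sparc, Coch, Ptgds) were added after seeing the data. The script was tested on simulated counts with 200 changed genes. The text names the 40 most abundant and 40 most variable genes, the 4 markers, the 10 steadiest genes and up to 8 members per list plus defining members without reads; further list members that define a cell type, such as Slc26a5, Tecta, Bsnd, Tyr and Col1a1, fall outside this rule and were named after their values were seen. Members and lists (46 lists, 837 genes, 700 in the table) were chosen with earlier results of these data known. Some genes that this rule names are not reported here. 5273 genes have only a LOC symbol and match no list.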

Additional observations from a re-analysis of the deposited data

Results flagged for a closer look

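In 26 of 169 values tested (124 named genes and 45 list sums), 1 library lay far from the other 3. The gap to the nearest library was above the 95% critical share of the whole range in Dixon's test for 4 values. Replicate 2 was the distant library for 11 genes, replicate 4 for 8, replicate 3 for 3 and replicate 1 for 2. Chance exceeds the critical value in about 1 of 20 groups picked without regard to their spread. Many of these genes were named because they varied most between the same 4 libraries, so that rate does not apply to the count, which is a description.

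In replicate 2 the neuronal genes Chgb (82.6 FPKM), Cplx1 (104.0), Eef1a2 (242), Ina (72.6), Nefh (287), Scg2 (41.4), Slc17a7 (38.3), Snap25 (182), Tubb3 (59.3) and Uchl1 (159) lay above the other libraries. The chaperone Hsph1 (74.9 FPKM) did as well, and so did the summed heat shock list, at 2360.0 FPKM beside 1454 to 1582.

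In replicate 4 the cotransporter Slc12a2 (200.4 FPKM) and the mesenchymal factor Pou3f4 (19.1) lay above the others. The interferon-related genes Dhx58 (69.4), Ifit5 (54.2) and Rigi (23.2) did too. Cabp2 (27.9), S100a1 (652) and Kcnj10 (31.8) lay below the others in replicate 4.

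In replicate 3 Oc90 (181 FPKM), Slco2a1 (8.94) and Mog (1.08) were set apart, with the summed neutrophil list at 6.19 FPKM beside 2.2 to 2.79. In replicate 1 Jchain (7.36 FPKM) and Sst (20.5) were.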

How the results depend on the processing

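TPM, a mean of at least 1 FPKM, at least 10 counts in all libraries and leaving out any library kept the number of expressed genes within 1.5 times of 12320. Without correction for gene length, 24 of the 40 most abundant genes were shared, and the 40 took 11.2% of counts in place of 19.2% of FPKM. The 1229 genes past 2-fold became 2603 (14.6% of 17852) with no filter and 403 (5.59% of 7213) at a mean of at least 500 counts, where 13 of the 40 most variable genes were shared. The other scalings and pseudocounts gave 992 to 1318. Leaving out each library gave 691 (without replicate 4) to 1066 genes and 14 (without replicate 2) to 37 shared genes, so most of the 40 rest on replicate 2. The ratio of highest to lowest list sum ran from 1.70 to 4.80 for hair cells, 1.99 to 6.73 for neurons and 2.04 to 4.48 for interferon-stimulated genes when each library was left out. From the mean of log2(FPKM + 0.1) the hair cell ratio was 2.18, and without Ocm, Calb2 and Pvalb, an alternative chosen after seeing the data, it was 2.08. For the other 42 lists, 280 of 294 values stayed within 1.5 times. Counting error was small for most genes compared, while values under 1 FPKM rest on few reads. No paired analysis was possible because only 1 group was used.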

Other observations

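The genes for histocompatibility antigens were among those that differed most between the untreated libraries. They were picked by description after their values were seen. LOC100713317, described as a class I chain, stood at 30.4, 59.0, 28.3 and 0.76 FPKM in replicates 1 to 4, and LOC100713873, of the same description, at 40.9, 2.40, 30.3 and 23.6. LOC100735670, a class II DQ alpha-like chain, was at 11.7 and 7.10 FPKM in replicates 1 and 3 and had no read in replicates 2 and 4. LOC100715615, a class II DP alpha chain, stood at 20.3, 0.27, 13.2 and 3.39 FPKM. Of 12 such genes that passed the filter, 8 differed 2-fold or more, beside 9.73% of all genes compared.

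All 34 rows so described lie on 1 scaffold, between 47476892 and 52551807 in the deposited coordinates. Of the 81 genes in that stretch that passed the filter, the 12 above included, 21 (25.9%) differed 2-fold or more. On the rest of the scaffold 10.2% of 293 genes did so. Among the other 69 genes of the stretch, 13 (18.8%) did so, and 7 of the 13 were lowest in replicate 2, among them Notch4, a receptor of vessels, at 4.33, 1.51, 3.93 and 3.97 FPKM, and Psmb8, an immunoproteasome subunit, at 13.4, 3.66, 6.61 and 11.2. The 13 also held Psmb9 and rows for heat shock 70 kDa protein 1B (LOC100717205 and LOC100729464), and these rows were highest in replicate 2. Near-identical copies can share or lose reads in counting, and whether the animals differ in these genes was not tested.

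Some further interferon-induced rows with only a LOC symbol followed the listed genes and others did not. Those named here were picked after their values were seen. An Mx1-like row (LOC134470419) stood at 36.1, 11.0, 7.57 and 122 FPKM and an interferon-induced transmembrane protein 3-like row (LOC100713599) at 56.1, 31.7, 19.1 and 269. In contrast, an interferon alpha-inducible protein 27-like row (LOC100734680) was highest in replicate 2, at 1.04, 5.68, 2.30 and 1.68. A guanylate-binding protein 1-like row (LOC100735241) was at 7.92, 1.19, 0.31 and 7.26. A row for heat shock 70 kDa protein 1B (LOC100717205) stood at 12.1, 65.1, 13.8 and 13.8.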
